A study of Mus musculus with 8 samples.

Results

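The genes described here encode the subunits of the proteasome and the proteins that assemble and activate it. They were taken by name, as every gene of the deposited table whose symbol is *Psma*, *Psmb*, *Psmc*, *Psmd*, *Psme*, *Psmf* or *Psmg* followed by a number. Of 47 such genes, the 3 immunoproteasome subunits *Psmb8*, *Psmb9* and *Psmb10* were set aside for comparison, which left 44 of the 17500 genes in the table. All 44 were among the 16797 genes with enough counts to be tested. By role they were 15 genes of the 20S core particle, 17 of the 19S regulatory particle, and 12 genes of activators, an inhibitor and assembly chaperones.

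The proteasome degrades proteins that carry a chain of ubiquitin. Its core particle is a barrel of stacked rings, with alpha subunits forming the outer rings that gate the entrance and beta subunits forming the inner rings that hold the proteolytic sites. The regulatory particle caps the barrel, recognises the ubiquitin chain, removes it and threads the unfolded substrate into the core. Photoreceptors, which make up most of the mouse retina, renew large amounts of light-sensing protein and are known to depend on proteasome capacity.

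RNA was sequenced from whole retinas of 8 mice, with 1 library per mouse. The 4 controls were M833, M894, M896, M898, and the 4 *Rbfox2*-/- mice were M893, M901, M902, M909. Values of single mice follow these orders. All were C57BL/6J mice of 6 months. *Rbfox2* encodes an RNA-binding protein that controls alternative splicing. The *Rbfox2*-/- mice, called Rbfox2 KD in the sample labels, carried both *Rbfox2* alleles floxed (fl/fl) and 1 copy of a transgene for a tamoxifen-dependent Cre recombinase. This Cre is not limited to the retina or to 1 cell type, and the mice had received tamoxifen by gavage about 4 months earlier. The controls were heterozygous *Rbfox2* fl/+ mice of the same age. The labels give tamoxifen for all 8 mice, and whether the controls carried Cre was not given in the sources used here.

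Each library held between 160630226 and 211283591 counts on genes, so 3 counts, taken as the smallest detectable amount, corresponded to at most 0.0189 CPM, the unit used here for counts scaled to the normalized size of each library. *Rbfox2* itself was below every control in each *Rbfox2*-/- library, with 53.6 to 59.4 CPM against 144 to 157 CPM. M901 and M902 stood apart on the first principal component (40.5% of the variance), and these were also the only libraries with high *Xist* (277506 and 275967 counts against 312 to 426). M909 stood apart on the second (19.2%). Rod, cone, bipolar, amacrine, horizontal, ganglion and Müller glia markers were all detected. Summed ganglion markers (*Rbpms*, *Pou4f1*, *Sncg*) were 101 to 176 CPM in controls, lowest in M833, and 134 to 172.5 CPM in *Rbfox2*-/- libraries. Summed pigment epithelium markers (*Rpe65*, *Ttr*, *Rgr*) were 75.5 to 144 CPM in controls and 72.8 to 185 CPM in *Rbfox2*-/- libraries, highest in M909. Summed cone markers (*Arr3*, *Opn1sw*, *Pde6h*) were 628 to 753 CPM in *Rbfox2*-/- and 556 to 589 CPM in control libraries, and summed Müller glia markers (*Rlbp1*, *Glul*, *Slc1a3*) were 3620 to 3805 and 3887 to 4228 CPM. Summed markers of the ciliary epithelium at the edge of the retina (*Best2* and *Slc13a4*, the 2 of 3 listed genes that were in the table) were 1.63 and 1.49 CPM in M901 and M902, 20.4 and 17.7 CPM in M893 and M909, and 15.5 to 38.0 CPM in controls. In whole tissue, fewer cells of a type and less RNA per cell cannot be told apart, and the part of these markers in the proteasome values was not tested.

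No proteasome gene differed between the genotypes past the threshold for all genes. With edgeR's quasi-likelihood test, Benjamini-Hochberg adjusted over all genes, 0 of the 44 reached a false discovery rate (FDR) below 0.05, against 0.0655% of all genes tested (11 genes), and the lowest FDR among the 44 was 0.277. DESeq2, limma-voom and edgeR's likelihood ratio test on the same counts also called 0 of them. At an unadjusted p under 0.05 there were 3 of the 44, the 19S subunits *Psmc6* and *Psmd12* with higher values and the activator *Psme1* with lower values in *Rbfox2*-/- retinas, where 13.3% of all genes passed the same threshold. The same 3 genes were the only members whose 4 *Rbfox2*-/- values did not overlap the 4 control values, which was the case for 7.03% of all genes (3.64% higher and 3.39% lower). The log2 fold change of *Rbfox2*-/- against control was above 0 for 27 members and below 0 for 17, against 50.7% of all genes above 0. The median over the 44 was 0.017, against 0.0016 over all genes tested.

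The proteasome genes also varied little between mice. Leaving out *Psma8*, which was close to undetected, the median coefficient of variation of CPM over the 8 libraries was 3.79% for 43 members. It was 7.39% over all genes tested and 5.66% over the 10510 genes whose mean level lay in the range of the members, 4.99 to 174 CPM. The median size of the log2 fold change, without its sign, was 0.04 for these members, 0.054 for the genes in that range and 0.072 for all genes. Levels were not matched within the range, so the part of expression level in these differences was not tested. The 95% interval of the log2 fold change lay within 0.1 of 0 for 10 of the 43 genes, within 0.2 for 40 and within 0.3 for all 43. An increase of 0.2 on the log2 scale corresponds to 14.9% and one of 0.3 to 23.1%. Larger differences than these limits lay outside the intervals of those genes, for levels in whole retina. The paper found Rbfox2 staining only in ganglion, horizontal and amacrine cells. A larger difference confined to those cells would be diluted in whole retina and was not tested.

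**Figure D1:**
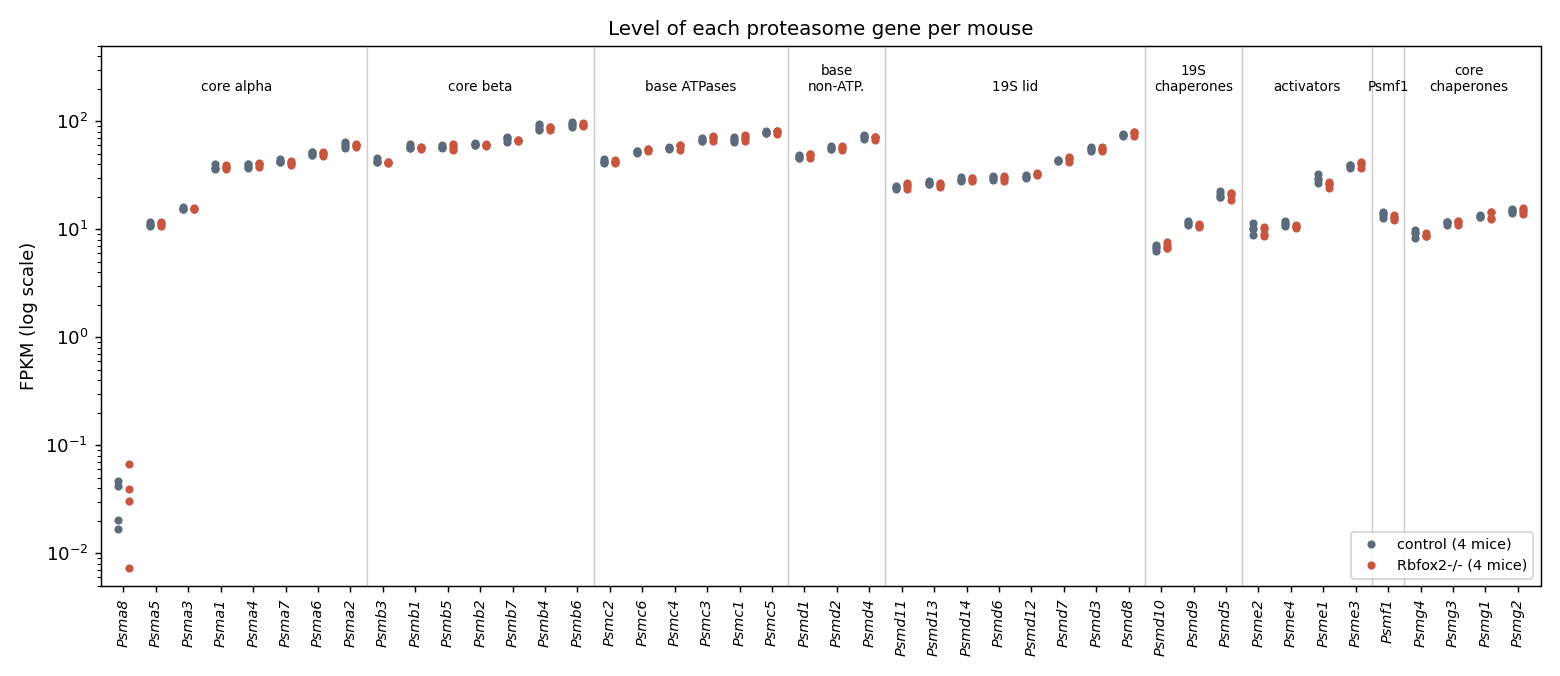
Level of each of the 44 proteasome genes in each mouse, in FPKM (fragments scaled to library size and gene length) on a log scale, with 4 control (grey) and 4 *Rbfox2*-/- (red) mice as points and genes ordered by level within each group of subunits. Points of both genotypes lie on top of each other at nearly every gene, on a scale too wide to show small differences. *Psmb6* is the highest at a mean of 93.5 FPKM, and *Psma8* stands alone at the bottom at 0.034 FPKM.

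Levels of different genes were compared per length of transcript, as the FPKM values that the authors deposited. The core and regulatory particles were expressed at the same order of magnitude, with a median of 50.3 FPKM over the 15 core genes and 53.5 FPKM over the 17 regulatory genes. Without *Psma8* the core median was 53.9 FPKM. Assembly chaperones, activators and the inhibitor, which are not fixed parts of every particle, had a median of 12.4 FPKM. In the core, *Psmb6* (mean 93.5 FPKM) and *Psmb4* (87.5 FPKM) led the order, and their ranges over the 8 mice overlapped. *Psmb7* followed at 67.5 FPKM. *Psmb2*, *Psma2*, *Psmb5* and *Psmb1* lay between 57.5 and 61.1 FPKM with overlapping ranges, *Psma6* was at 50.3 FPKM, and *Psmb3*, *Psma7*, *Psma4* and *Psma1* lay between 37.8 and 42.4 FPKM. *Psma3* (15.6 FPKM) and *Psma5* (11.2 FPKM) were the lowest of the subunits present in every core particle, and their ranges over the mice, 15.3 to 16.0 and 10.7 to 11.7 FPKM, did not overlap each other or any other core subunit. Only uniquely mapped reads were counted, and *Psma3* and *Psma5* share at least 300 bases of at least 95% identity with transcripts of 4 and 2 other annotated genes. For *Psma5* the longest match was 952 bases at 98.6% identity to the pseudogene *Gm8394*, so that the counts of both genes are uncertain as absolute levels. The same limit holds for *Psma2*, *Psma4*, *Psmb3* and *Psmb5*, which also share such stretches with other annotated genes.

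The 8 alpha genes of the core form and gate the outer rings. *Psma8*, the alpha subunit of the testis proteasome and a relative of *Psma7*, had 15, 6, 15 and 5 counts in the 4 controls and 9, 22, 2 and 13 counts in the 4 *Rbfox2*-/- libraries, and some of these values were around the 3 counts taken as detectable. Its log2 fold change of 0.22 had a 95% interval from -1.06 to 1.49, so nothing can be read from it. The highest alpha gene, *Psma2*, had 54.9, 55.3, 58.4 and 60.5 CPM in the controls and 57.2, 57.9, 58.8 and 54.8 CPM in *Rbfox2*-/- retinas. The *Rbfox2*-/- values of *Psma2* all lay inside or just below the control range. Without *Psma8*, 5 of the 7 alpha genes had a log2 fold change above 0, from -0.053 for *Psma7* to 0.061 for *Psma4*, with a median of 0.017.

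The 7 beta genes differed little between the genotypes, from -0.033 for *Psmb3* to 0.017 for *Psmb5* on the log2 scale, with 2 above 0 and 5 below. *Psmb5*, *Psmb6* and *Psmb7* encode the subunits with the chymotrypsin-like, caspase-like and trypsin-like activities. *Psmb5* had 50.7, 49.2, 50.4 and 52.0 CPM in the controls and 52.4, 50.2, 54.1 and 48.0 CPM in *Rbfox2*-/- retinas, with M909 the lowest and M902 the highest of all 8. Its log2 fold change was 0.017 (95% interval -0.08 to 0.12, FDR = 0.90 by edgeR). *Psmb6* had 94.0, 94.6, 97.1 and 100 CPM in the controls and 95.5, 96.9, 101 and 95.4 CPM in *Rbfox2*-/- retinas, a log2 fold change of 0.014 (95% interval -0.062 to 0.089). All but 1 of the *Rbfox2*-/- values of *Psmb6* lay inside the control range, and M902 was above it. *Psmb7* had 63.6, 65.2, 68.4 and 66.6 CPM in the controls and 63.7, 66.1, 65.6 and 64.2 CPM in *Rbfox2*-/- retinas, a log2 fold change of -0.023 (95% interval -0.099 to 0.053). For these catalytic subunits a difference in whole retina of more than 0.12 on the log2 scale in either direction lay outside the interval. The lowest beta gene, *Psmb3*, a non-catalytic subunit, had 31.2, 30.7, 30.8 and 32.9 CPM in the controls and 30.7, 30.6, 30.8 and 30.5 CPM in *Rbfox2*-/- retinas, so that the *Rbfox2*-/- values were nearly identical to each other and overlapped the low end of the controls.

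Genes of the 19S regulatory particle lay more to the positive side than those of the core. Of 17 genes, 14 had a log2 fold change above 0, with a median of 0.059 and a range from -0.033 for *Psmd13* to 0.092 for *Psmd12*. The choice by name left out 2 further 19S subunits, *Adrm1* and *Sem1* (*Shfm1* in the deposited data). Both had a log2 fold change below 0, of -0.043 and -0.0086. Without *Psma8*, 7 of the 14 core genes were above 0 and 7 below, with a median of 0.0055. Among the 19S genes 2 had an unadjusted p under 0.05, both higher in *Rbfox2*-/- retinas, where 6.42% of all genes tested were called in that direction.

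**Figure D2:**
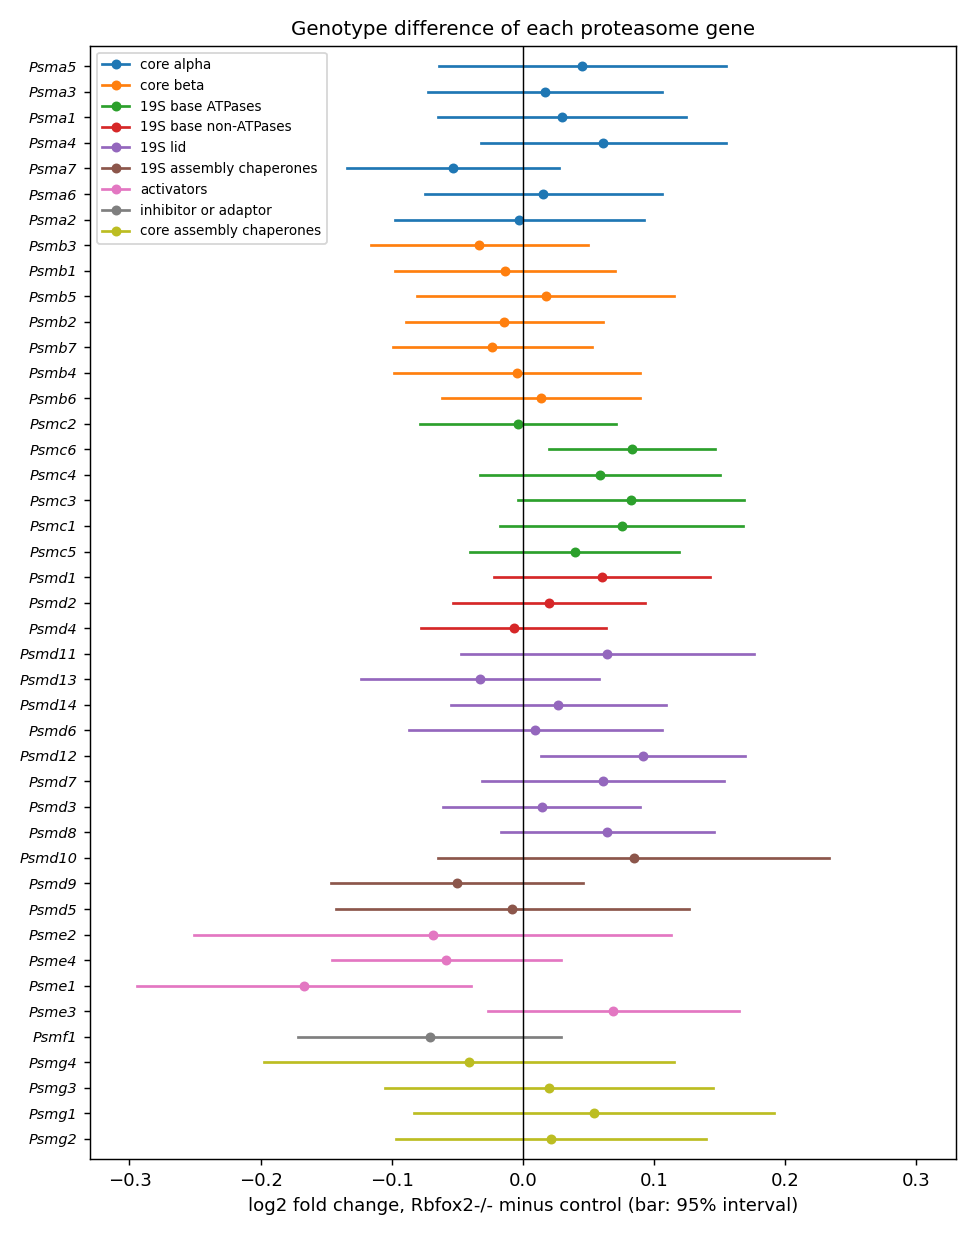
Fitted log2 fold change (*Rbfox2*-/- minus control) of each proteasome gene except *Psma8*, as points with the 95% interval as bars, coloured by group of subunits and ordered by level within each group. Most 19S genes lie to the right of 0 and the beta genes of the core lie close to it, and the interval leaves 0 out for *Psmc6*, *Psmd12* and *Psme1*.

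The base of the 19S particle contains a ring of 6 ATPases, *Psmc1* to *Psmc6*, which unfold the substrate. *Psmc6* (chr14:45329788-45349705, plus strand, GRCm38) had 81.5, 81.8, 80.4 and 81.2 CPM in the controls and 85.6, 87.8, 86.7 and 84.1 CPM in *Rbfox2*-/- retinas. The 4 controls of *Psmc6* were close to each other, and the lowest *Rbfox2*-/- mouse, M909, was above the highest control. The log2 fold change was 0.083 (SE 0.029, unadjusted p = 0.0154, FDR = 0.277 by edgeR's quasi-likelihood test). *Psmc3* followed with 109.7 ± 2.35 CPM in controls and 116 ± 5.60 CPM in *Rbfox2*-/- retinas (SD, n = 4), where M909 (109.1 CPM) lay among the controls. The highest ATPase per length, *Psmc5*, had 102, 97.9, 98.9 and 103 CPM in the controls and 104, 106, 106 and 97.3 CPM in *Rbfox2*-/- retinas, with 3 of the latter above all controls and M909 below them. The lowest, *Psmc2*, had 75.0, 74.3, 75.9 and 78.1 CPM in the controls and 75.2, 78.7, 75.1 and 73.6 CPM in *Rbfox2*-/- retinas, and it was the 1 ATPase with a log2 fold change below 0 (-0.0035). The ATPases as a group had a median log2 fold change of 0.067.

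The base also holds *Psmd1* and *Psmd2*, large scaffold subunits, and *Psmd4*, a receptor for ubiquitin chains. *Psmd1*, the lowest of them per length, had 150, 149, 154 and 158 CPM in the controls and 163, 164, 160 and 150.1 CPM in *Rbfox2*-/- retinas. *Psmd4*, the highest, had 94.5, 94.5, 96.7 and 98.0 CPM in the controls and 95.4, 96.9, 97.9 and 91.7 CPM in *Rbfox2*-/- retinas. In *Psmd1* the mice M893, M901 and M902 were above all controls, and in *Psmd4* they were within the control range, while M909 was at or below the low end of the controls in both genes. The log2 fold changes were 0.06 for *Psmd1*, 0.02 for *Psmd2* and -0.0068 for *Psmd4*.

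The lid of the 19S particle carries *Psmd14*, the enzyme that cuts off the ubiquitin chain, on a frame of scaffold subunits to which *Psmd12* belongs. *Psmd12* (chr11:107479484-107504362, plus strand) had 53.8, 51.4, 52.3 and 54.4 CPM in the controls and 55.1, 57.4, 57.5 and 55.8 CPM in *Rbfox2*-/- retinas. Every *Rbfox2*-/- value of *Psmd12* was above every control, and the nearest, M893 and M898, were close. Its log2 fold change of 0.092 was the largest of the regulatory particle (SE 0.035, unadjusted p = 0.0257, FDR = 0.320 by edgeR's quasi-likelihood test). *Psmd14* itself had 44.4 ± 1.29 CPM in controls and 45.2 ± 0.90 CPM in *Rbfox2*-/- retinas (SD, n = 4), a log2 fold change of 0.027. The highest lid gene per length, *Psmd8*, had 116, 109.7, 112 and 114 CPM in the controls and 117, 122, 122 and 112 CPM in *Rbfox2*-/- retinas. The lowest, *Psmd11*, had 45.0, 41.1, 42.4 and 42.0 CPM in the controls and 43.2, 45.9, 47.4 and 41.7 CPM in *Rbfox2*-/- retinas. In both genes M901 and M902 were the 2 highest libraries, and the groups overlapped.

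To compare the particles within each library, free of its size, the summed FPKM of the core genes was divided by that of the 19S genes. The ratio was 0.837, 0.838, 0.860 and 0.863 in the controls and 0.820, 0.807, 0.825 and 0.845 in *Rbfox2*-/- retinas. The mean was 0.850 ± 0.014 in controls and 0.825 ± 0.016 in *Rbfox2*-/- retinas (SD, n = 4). M893, M901 and M902 lay below all controls and M909 lay among them, so the groups overlapped. On the log2 scale the mean difference was -0.044, and it was -0.043 with summed CPM and -0.037 with the mean of log2 levels. Summed core FPKM had a mean of 729 in controls (702.2 to 764.3) and 720.5 in *Rbfox2*-/- retinas (701.8 to 728.8), and summed 19S FPKM a mean of 858 (838.7 to 885.2) and 874 (830.2 to 896.5), with the range over 4 mice in parentheses. Summed core CPM was 739 ± 22.1 and 739 ± 14.6, and summed 19S CPM was 1491 ± 24.6 and 1538 ± 53.7 (SD, n = 4). The groups overlapped in each of these sums. Since the genes were chosen with earlier results of these data known, no p-value was computed for these sums.

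The 19S values rested on which *Rbfox2*-/- mice were included. The median log2 CPM of the 19S genes, relative to the control mean, was 0.048, 0.11, 0.073 and -0.043 in the *Rbfox2*-/- mice, against -0.029 to 0.036 in the controls. M901 was the highest of all 8 libraries in 11 of the 17 genes of the 19S particle, and M909 was the lowest in 9 of them. Over all 44 members M909 was the lowest library in 17 and the highest in 0, where it was the lowest in 14.2% and the highest in 14.9% of all genes tested. M901 was the highest library in 17 members and in 13.2% of all genes. Without M909, 10 members had an unadjusted p under 0.05 against 17.8% of all genes, 9 of them higher (*Psmc1*, *Psmc3*, *Psmc4*, *Psmc6*, *Psmd1*, *Psmd7*, *Psmd8*, *Psmd12* and *Psme3*), the lowest FDR by edgeR was 0.161, and the 19S median was 0.088. In that setting 14 members had groups that did not overlap, against 16.1% of all genes. Without M901 and M902, the libraries with high *Xist*, 0 members had an unadjusted p under 0.05 by edgeR against 6.01% of all genes, the 19S median was 0.0036, the median over the 44 members was -0.015, and 17 members were above 0. Both are *Rbfox2*-/- libraries, and no control had high *Xist*. The paper does not give the sex of the mice. Sex, or whatever else goes with high *Xist*, and the genotype cannot be told apart in M901 and M902. Leaving out M901 alone left 1 member with an unadjusted p under 0.05, *Psme1*, against 9.25% of all genes, and leaving out the control M898 gave 5, against 8.83%. The summed ciliary epithelium markers given above were low in the same M901 and M902, and their part in the 19S values was not tested.

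**Figure D3:**
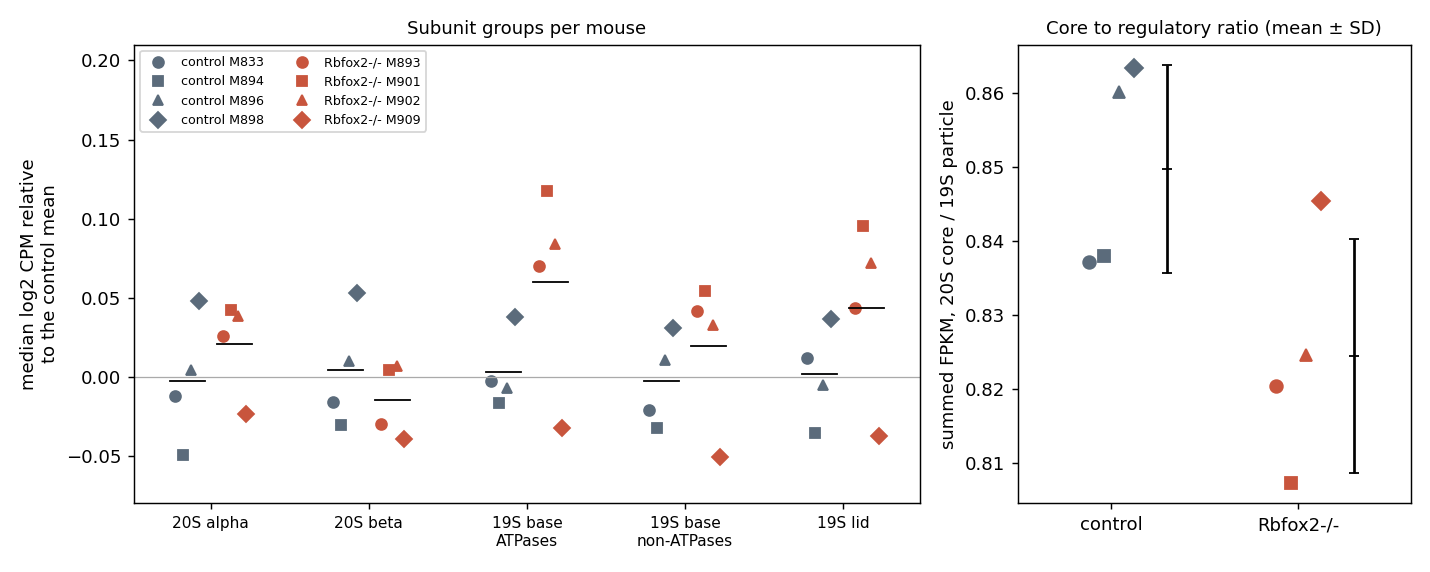
Left, the median log2 CPM of each group of subunits relative to its control mean, per mouse, with 1 symbol for each mouse and a line at the group mean. Right, the ratio of summed FPKM of the core to the 19S particle per mouse, with mean and SD on an axis that does not start at 0. The 5 groups on the left are those of the core and the 19S particle. M901, M902 and M893 are above the controls for all 3 groups of the 19S particle and below them in the ratio, and M909 is near or below the low end of the controls in the left panel and among them in the right.

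Activators replace or accompany the 19S cap. *Psme1* and *Psme2* encode the alpha and beta subunits of the PA28 ring, which opens the core for peptides and is known to be induced by interferon gamma. *Psme1* (chr14:55578123-55581529, plus strand) had 26.9, 28.0, 28.1 and 31.4 CPM in the controls and 26.5, 25.9, 23.7 and 25.6 CPM in *Rbfox2*-/- retinas. All 4 *Rbfox2*-/- values were below all controls, and the nearest, M893 and M833, were close. The log2 fold change of -0.17 was the largest decrease among the members (SE 0.057, unadjusted p = 0.0152, FDR = 0.277 by edgeR's quasi-likelihood test), where 6.87% of all genes had an unadjusted p under 0.05 in this direction. *Psme1* overlaps *Emc9* on the opposite strand, and reads from both cannot be told apart if strand was not used in counting, which is not given in the sources used here. *Psme2*, its partner and the lowest activator per length, had 8.16, 10.1, 8.92 and 9.07 CPM in the controls and 8.96, 7.93, 9.47 and 8.19 CPM in *Rbfox2*-/- retinas, and the groups overlapped. Its log2 fold change was -0.069 (95% interval -0.25 to 0.11), and its counts are uncertain because *Psme2b* matches it at 99.4% identity over 794 bases. The ratio of *Psme1* to *Psme2* FPKM was 2.91 ± 0.27 in controls and 2.72 ± 0.31 in *Rbfox2*-/- retinas (SD, n = 4).

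*Psme3* encodes the nuclear activator PA28 gamma and was the highest activator, with 102, 96.5, 102 and 102 CPM in the controls and 108, 111, 106 and 97.4 CPM in *Rbfox2*-/- retinas. M893, M901 and M902 were above all controls of *Psme3*, and M909 was above only M894. *Psme4*, the activator PA200, had 72.5 ± 3.39 and 69.6 ± 1.21 CPM (SD, n = 4). *Psmf1*, the proteasome inhibitor PI31, had 46.2, 47.5, 51.0 and 48.9 CPM in the controls and 45.8, 45.5, 44.3 and 48.7 CPM in *Rbfox2*-/- retinas, with 3 of the latter below all controls and a log2 fold change of -0.071 (95% interval -0.17 to 0.029).

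*Psmd10* (gankyrin), *Psmd9* and *Psmd5* hold the ATPases during assembly of the 19S base. *Psmd10*, the lowest of these, had 9.65, 8.61, 9.10 and 9.69 CPM in the controls and 9.84, 10.8, 9.30 and 9.38 CPM in *Rbfox2*-/- retinas. *Psmd5*, the highest, had 41.7, 40.2, 43.01 and 45.5 CPM in the controls and 41.8, 44.5, 45.0 and 38.1 CPM in *Rbfox2*-/- retinas. In both genes the groups overlapped, and the 95% interval of the log2 fold change reached 0.23 for *Psmd10*. *Psmg1* to *Psmg4* encode the chaperones that build the alpha ring. *Psmg4*, the lowest, had 4.71, 5.38, 5.07 and 5.09 CPM in the controls and 4.81, 4.83, 4.90 and 5.14 CPM in *Rbfox2*-/- retinas. *Psmg2*, the highest, had 16.1, 15.3, 14.9 and 16.0 CPM in the controls and 15.9, 15.9, 16.8 and 14.8 CPM in *Rbfox2*-/- retinas. The log2 fold changes of these 4 chaperone genes ran from -0.041 for *Psmg4* to 0.054 for *Psmg1*.

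The inducible beta subunits of the immunoproteasome, which take the place of the catalytic subunits in immune cells and after interferon and favour peptides for antigen presentation, differed from their constitutive counterparts in level and spread. *Psmb8* replaces *Psmb5*, *Psmb9* replaces *Psmb6* and *Psmb10* replaces *Psmb7*. In controls the FPKM of *Psmb8* was 6.27 ± 1.28% of that of *Psmb5*, that of *Psmb9* 2.27 ± 0.38% of that of *Psmb6*, and that of *Psmb10* 9.77 ± 0.70% of that of *Psmb7* (SD, n = 4). In *Rbfox2*-/- retinas the shares were 4.85 ± 0.84%, 1.54 ± 0.53% and 8.54 ± 0.76%. The groups overlapped for each pair, with M901 and M902 the 2 lowest of all 8 libraries in all 3 shares. *Psmb8* had 4.32, 3.61, 5.74 and 4.14 CPM in the controls and 3.86, 2.89, 3.20 and 3.94 CPM in *Rbfox2*-/- retinas. *Psmb9* had 1.38, 1.68, 2.10 and 1.65 CPM in the controls and 1.02, 0.91, 0.98 and 1.73 CPM in *Rbfox2*-/- retinas. *Psmb10* had 7.72, 7.81, 9.51 and 8.80 CPM in the controls and 7.78, 6.72, 6.91 and 7.61 CPM in *Rbfox2*-/- retinas. All 3 genes had lower means in *Rbfox2*-/- retinas and none passed the FDR threshold. The log2 fold changes were -0.36 for *Psmb8* (unadjusted p = 0.0423, FDR = 0.363), -0.55 for *Psmb9* (unadjusted p = 0.0299, FDR = 0.335) and -0.22 for *Psmb10* (unadjusted p = 0.0266, FDR = 0.322) by edgeR's quasi-likelihood test. DESeq2, limma-voom and edgeR's likelihood ratio test also gave all 3 an unadjusted p under 0.05 and none an FDR under 0.05. Without M909 the log2 fold changes were -0.425, -0.811 and -0.245 (unadjusted p = 0.0297, 0.00063 and 0.0294 by edgeR). The FDR of *Psmb9* was then 0.083, and 17.8% of all genes had an unadjusted p under 0.05. None of the 3 kept an unadjusted p under 0.05 by edgeR when the control M896, M901 or M902 was left out. Without M896 the log2 fold changes were -0.21, -0.44 and -0.16 (unadjusted p = 0.144, 0.0910 and 0.0885 by edgeR). Without both M901 and M902 they were -0.19, -0.31 and -0.14 (unadjusted p = 0.302, 0.239 and 0.224 by edgeR). The summed microglia markers *C1qa*, *Cx3cr1* and *Csf1r*, all 3 detected, were 26.6 to 30.7 CPM in controls and 28.5, 24.8, 22.8 and 29.5 CPM in the *Rbfox2*-/- mice, so that the same M901 and M902 were lowest, and their part in the immunoproteasome values was not tested.

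**Figure D4:**
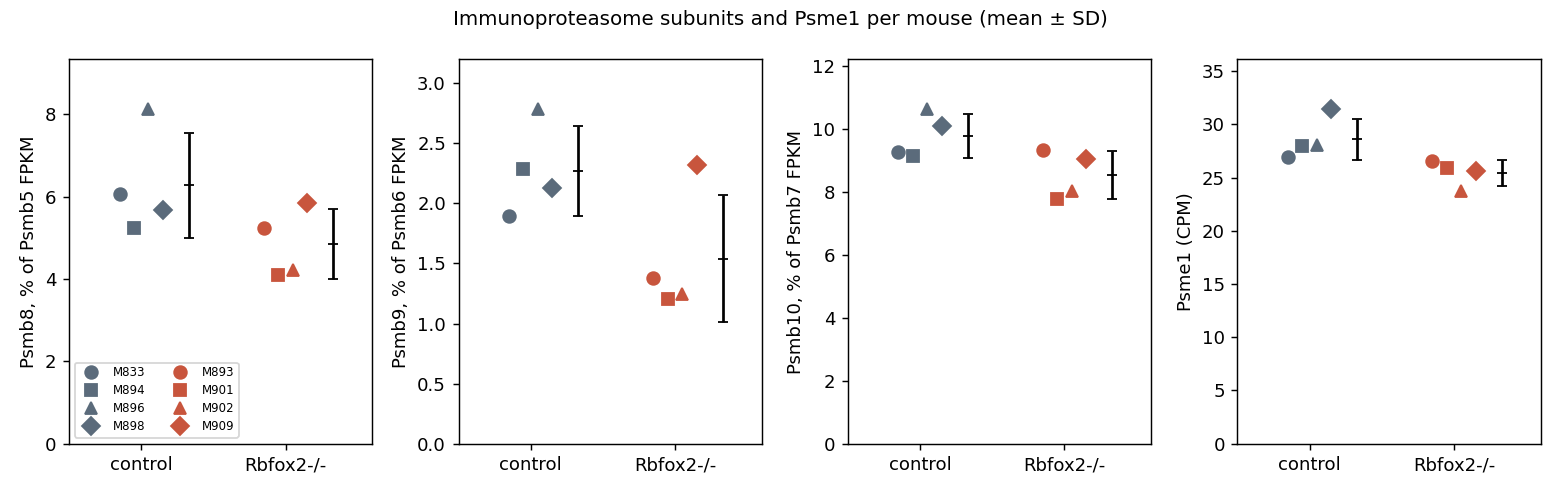
FPKM of each immunoproteasome subunit as a percentage of the constitutive subunit it replaces, and CPM of *Psme1*, in each of 4 control and 4 *Rbfox2*-/- mice, with 1 symbol per mouse and bars for mean and SD. M901 and M902 are the lowest libraries in the first 3 panels, where the groups overlap, and the *Rbfox2*-/- values of *Psme1* are all below the controls.

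Other genes of the ubiquitin-proteasome pathway were read from the same fit. Of 36 listed genes, 35 were tested. With edgeR's quasi-likelihood test 0 reached an FDR below 0.05, against 0.0655% of all genes tested. An unadjusted p under 0.05 was reached by 6, against 13.3% of all genes. DESeq2 gave 3 genes an FDR under 0.05 (*B2m*, *Tap1* and *Ubqln4*), where it called 465 of the 16797 genes. The likelihood ratio test of edgeR gave 1 (*B2m*), where it called 164. Leaving aside 7 genes of the immunoproteasome and antigen processing, 17 of 28 were above 0, with a median log2 fold change of 0.016. Of these 28 genes, 1 had an unadjusted p under 0.05 and was higher, and 0 were lower. Over all genes tested 6.42% were higher and 6.87% lower at that threshold. The 1 gene of the 28 under it was *Ubqln4*, a shuttle factor that carries ubiquitinated proteins to the proteasome. *Ubqln4* had 88.1, 83.9, 79.9 and 80.7 CPM in the controls and 98.7, 96.4, 97.2 and 85.5 CPM in *Rbfox2*-/- retinas. M909 lay below the highest control of *Ubqln4*, and the log2 fold change was 0.18 (SE 0.051, unadjusted p = 0.00518, FDR = 0.221 by edgeR). *Nfe2l1*, the transcription factor that raises proteasome genes when proteasome activity is low, was at 301 ± 9.37 and 297 ± 14.4 CPM (SD, n = 4), a log2 fold change of -0.017. *Pomp*, the maturation chaperone of the core, had a log2 fold change of 0.052, *Adrm1*, a ubiquitin receptor of the 19S particle, of -0.043, and *Vcp*, the ATPase that extracts proteins for degradation, of 0.055. None of these had an unadjusted p under 0.05.

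In the list of antigen processing genes, 7 of 7 had a log2 fold change below 0 and 5 had an unadjusted p under 0.05, namely *Psmb8*, *Psmb9*, *Psmb10*, *B2m* and *Tap1*, where 6.87% of all genes tested were lower at that threshold. *B2m*, the light chain of MHC class I, had 31.8, 39.0, 39.6 and 45.2 CPM in the controls and 30.6, 28.5, 28.5 and 31.0 CPM in *Rbfox2*-/- retinas (log2 fold change -0.39, unadjusted p = 0.00156, FDR = 0.169 by edgeR). *Tap1*, which carries peptides made by the proteasome into the endoplasmic reticulum, had 5.96, 7.01, 8.76 and 6.64 CPM in the controls and 5.59, 4.63, 4.07 and 5.73 CPM in *Rbfox2*-/- retinas (log2 fold change -0.50, unadjusted p = 0.00508, FDR = 0.221 by edgeR). In both genes every *Rbfox2*-/- value was below every control. *Tap2* (-0.18) and *Tapbp* (-0.0088) had p above 0.05. Without M901 and M902, 1 gene of the whole pathway list had an unadjusted p under 0.05 by edgeR, against 6.01% of all genes. It was *B2m*, with a log2 fold change of -0.34 and an FDR of 0.749. No test was made of the list as a whole.

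The promoters of proteasome genes were searched because many of them are known to be driven together by CNC-bZIP factors such as the product of *Nfe2l1*, which bind the antioxidant response element. The 250 bases before the RefSeq start of 36 of the 44 genes (GRCm38.p6) were searched on both strands for TGACNNNGC, the core of that element. It was found in 5 of 36 genes (*Psmb5*, *Psmb6*, *Psmc6*, *Psmd9* and *Psmd12*), or 13.9%, and in 13.7% of the promoters of 12708 genes of the table. The sequences of the catalytic genes *Psmb5* and *Psmb6* and of the 3 genes with the lowest p are given because the results above turn on them, read 5′ to 3′ along the gene's strand and ending at the base before the start, with the element in capitals. In order they lie at chr14:54617996-54618245 (minus strand), chr11:70525107-70525356 (plus), chr14:45329574-45329823 (plus), chr11:107479278-107479527 (plus) and chr14:55578244-55578493 (plus). The window of *Psme1* lies inside the gene as placed by the annotation used for the coordinates above (GENCODE), whose start is further upstream, and those of *Psmb5*, *Psmc6* and *Psmd12* overlap their genes there in part.
Psmb5: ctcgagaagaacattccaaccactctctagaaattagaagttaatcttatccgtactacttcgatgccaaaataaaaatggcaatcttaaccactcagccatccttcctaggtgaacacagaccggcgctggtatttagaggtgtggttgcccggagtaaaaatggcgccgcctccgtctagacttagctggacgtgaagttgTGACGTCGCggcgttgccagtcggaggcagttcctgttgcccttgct
Psmb6: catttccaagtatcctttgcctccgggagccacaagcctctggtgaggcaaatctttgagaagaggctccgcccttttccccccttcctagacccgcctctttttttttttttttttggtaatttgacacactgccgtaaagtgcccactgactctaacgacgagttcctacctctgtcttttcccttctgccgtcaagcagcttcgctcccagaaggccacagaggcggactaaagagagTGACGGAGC
Psmc6: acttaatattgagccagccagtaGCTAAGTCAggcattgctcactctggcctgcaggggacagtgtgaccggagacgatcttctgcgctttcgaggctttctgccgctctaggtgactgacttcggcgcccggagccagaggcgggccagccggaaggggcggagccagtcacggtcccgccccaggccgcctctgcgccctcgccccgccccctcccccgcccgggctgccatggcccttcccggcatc
Psmd12: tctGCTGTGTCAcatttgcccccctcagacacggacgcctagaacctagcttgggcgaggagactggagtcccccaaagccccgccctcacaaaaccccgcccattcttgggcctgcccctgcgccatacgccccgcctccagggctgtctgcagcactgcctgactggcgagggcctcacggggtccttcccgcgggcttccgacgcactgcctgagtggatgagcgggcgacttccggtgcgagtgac
Psme1: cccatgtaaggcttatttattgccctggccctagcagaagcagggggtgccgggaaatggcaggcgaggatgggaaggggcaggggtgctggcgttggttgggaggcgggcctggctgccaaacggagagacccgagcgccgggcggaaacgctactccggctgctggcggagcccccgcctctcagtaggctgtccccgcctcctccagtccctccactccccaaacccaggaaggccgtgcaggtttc

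In *Psmb5* the element began 47 bases before the start and in *Psmb6* 9 bases before it, both on the gene's strand, while in *Psmc6* (227 bases) and *Psmd12* (247 bases) it lay at the far end on the opposite strand. The catalytic genes that carry the element near the start had log2 fold changes of 0.017 and 0.014. Other motifs were the CCAAT box (CCAAT, 12 of 36 genes, 33.3% against 39.3% of all promoters), the nuclear respiratory factor site (6 genes, 16.7% against 7.63%), the ETS site (CCGGAAGT, 5 genes, 13.9% against 5.45%) and the GC box (GGGGCGGGG, 5 genes, 13.9% against 20.5%). The core of the interferon response element was in 3 genes (8.33% against 3.04%) and the interferon gamma activated site (TTCNNNGAA) in 1 gene (2.78% against 7.26%). These matches describe letters in a window and were not tested for enrichment.

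The 44 genes lay on 16 chromosomes of GRCm38, with 8 genes on chromosome 11, 6 on chromosome 2 and 5 on chromosome 14. *Psmb5*, *Psmc6*, *Psme1* and *Psme2* are all on chromosome 14, and *Psme1* and *Psme2* are close neighbours there, ending and starting at 55581529 and 55587441. A protein-coding gene on the other strand started within 1000 bases upstream of 8 of the 44 genes (18.2%), against 8.88% of 14919 protein-coding genes tested. Among these pairs were *Psmc2* with *Dnajc2* at 32 bases, *Psmc5* with *Ftsj3* at 75 bases, *Psma7* with *Ss18l1* at 76 bases and *Psmb1* with *Tbp* at 137 bases. In the annotation 19 members overlapped another gene, and 15 overlapped a gene on the opposite strand. Of the 44, 12 shared a stretch of at least 300 bases at 95% identity or more with a transcript of another gene. Among them were *Psmb5* with *Gm3375* (98.9% over 796 bases) and *Psmd2* with *Gm5422* (2726 bases). For *Psmd1* and *Psmd13* the matching gene, *Gm21972* and *Sirt3*, overlaps the member itself at the same place. How reads in such overlaps were counted is not given in the sources used here, so the counts of *Psmd1* and *Psmd13* are uncertain too. The counts of the other members with a match are uncertain as levels, since a read that fits both genes equally well was left out by the authors. *Psmc6*, *Psmd12* and *Psme1* had no such match. *Psmd12* overlapped *Gm11722* on the same strand, and *Psme1* overlapped *Emc9* on the opposite strand, as given above.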

How the data were processed

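Per the labels and the study's methods, retinal RNA was sequenced as paired reads from poly(A)-selected libraries. The authors aligned the reads to mm10 with STAR, kept uniquely mapped reads, and deposited fragment counts per gene from HTSeq, not normalized, with FPKM values made from them. The submitters' processing notes name CASAVA 1.8.2 and edgeR. The deposited adjusted counts, fold changes and p-values of the authors' own comparison were not used.

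Here, edgeR 4.0.16 (R 4.3.3) was used to filter the counts (filterByExpr), scale them (TMM) and compare the groups by its quasi-likelihood test, without covariates, over 16797 genes. Intervals are 95% intervals from that fit, and values with ± are mean and SD. CPM are counts scaled to the normalized library size. With 3 counts as the smallest amount, floors cover counting error only. Alternatives were limma-voom (limma 3.58.1), DESeq2 1.42.0, a likelihood ratio test, other scalings and filters, 1 surrogate variable (sva 3.50.0), leaving out each mouse, and leaving out M901 and M902. Scripts were tested on simulated data.

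Members and lists were chosen with earlier results of these data known. Values in every mouse are given for the catalytic subunits, members with an unadjusted p under 0.05 or with groups that do not overlap, the highest and lowest member of each group of subunits, the immunoproteasome, and pathway genes with an unadjusted p under 0.05. Other members are given by mean or range. *Psmb11* and *Paaf1* were not analysed here, and 1 listed microglia marker is not reported here. Positions are from GENCODE M21 (GRCm38), near-identical copies were found with blastn 2.17.0, and promoter sequences are from RefSeq (GRCm38.p6).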

Additional observations from a re-analysis of the deposited data

Results flagged for a closer look

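In a group of 4 mice, a value was singled out where its gap to the nearest other mouse took up more of the group's range than Dixon's 95% limit. Among 88 groups examined (44 genes in 2 genotypes) this held for 2, where chance gives about 4.4. *Psme3* was lowest in the control M894, with 96.5 CPM against 101.6 to 102.3 CPM in the other controls. *Psma1* was highest in the control M898, with 49.7 CPM against 45.6 to 46.2 CPM in the other controls. M894 was the lowest library in 15 of the 44 genes and M898 the highest in 10, against 13.7% and 16.8% of all genes tested.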

How the results depend on the processing

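No paired analysis was possible because the labels carry a mouse number for each library and no replicate number shared between the genotypes. Of the results on counts, medians and the ratio of core to regulatory particle, 127 alternative values moved little and 29 moved. No alternative gave a member an FDR under 0.05. The core medians in this section include *Psma8*, and with it the core median of the main fit was 0.014. The likelihood ratio test left 1 member with an unadjusted p under 0.05, against 10% of all genes. With each mouse left out in turn, that count ran from 1 to 10 (all genes: 8.83% to 17.8%), the count of members with groups that do not overlap from 3 to 14 (all genes: 8.49% to 16.1%), and the genes called over all genes from 5 to 35. Over all genes DESeq2 called 465, the likelihood ratio test 164, the fit with 1 surrogate variable 5 and the fit without M901 and M902 1. Without M901 and M902, 0 members had an unadjusted p under 0.05 (all genes: 6.01%), 5 had groups that do not overlap (all genes: 13.7%), the core median was -0.017, *Psmb5* was at -0.014 and *Psmb6* at -0.017. With 1 surrogate variable, 0 members had an unadjusted p under 0.05 (all genes: 6.56%), the core median was -0.017, the median over all 44 was -0.013, *Psmb5* was at -0.0083 and *Psmb6* at -0.0043. With each mouse left out, the core median ran from -0.0098 (without M901) to 0.025 (without the control M898), *Psmb5* from -0.011 to 0.048, *Psmb6* from -0.0078 to 0.032, and the 19S median from 0.036 to 0.088. The 19S median stayed above 0 in every alternative run, with 0.0036 without M901 and M902 and 0.0082 with 1 surrogate variable. Of the pathway genes, examined under the alternatives after the data were seen, DESeq2 gave 3 an FDR under 0.05 and the likelihood ratio test 1, and leaving out each mouse gave 0 to 1. Their count at an unadjusted p under 0.05 ran from 3 to 8 with each mouse left out, and was 1 without M901 and M902 and 2 with 1 surrogate variable. The cause of these changes was not tested. Depth limited *Psma8*, with 2 to 22 counts per library.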
